A study of Rattus norvegicus with 18 samples.

Results

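8-Aminoguanine (8-AG) is a purine given here to aged rats, and the genes described are 8 that handle cholesterol and lipoproteins, taken from a list of names: Apoe, Abca1, Abcg1, Hmgcs1, Sqle, Scarb1, Lpl and Lipg. All 8 were found among the 32285 genes of the retina table and the 32552 genes of the RPE/choroid table (RPE, retinal pigment epithelium). Retinae and RPE/choroids were collected from wild-type female Fischer 344 rats in 3 groups, with 3 libraries per group and tissue: untreated young rats (4 months by the labels), untreated aged rats (24 months) on plain water, and aged rats (24 months) that drank 8-AG at 5 mg/kg/day for 8 weeks from 22 months of age. No group carried a transgene or a second agent. Bulk mRNA was sequenced, so that fewer cells of a type and less RNA per cell cannot be told apart in any value below.

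Cholesterol is made inside cells from acetyl-CoA through the mevalonate and squalene steps, taken up as lipoprotein particles through surface receptors, and removed by ABC transporters that load it onto apolipoproteins. Sterol shortage releases the SREBP transcription factors, which switch on synthesis enzymes and lipoprotein uptake, whereas oxysterols activate the liver X receptors (LXR), which switch on the efflux genes Abca1, Abcg1 and Apoe. In the eye, photoreceptor outer segments are rich in lipid, the RPE takes up shed outer segments and plasma lipoproteins from the choroid, and Mueller glia are a main source of apolipoprotein E.

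RefSeq promoter windows (build GRCr8, whereas the submitters' processing notes name Rnor_6.0) were at hand for 4 of the 8 genes: Abca1, Apoe, Hmgcs1 and Lipg. The 250 bases before the start are printed for Abca1, the efflux gene with the largest rise in the aged retina, and for Hmgcs1, the synthesis gene whose difference missed the threshold there. Capitals mark a match to GGTNA and GGTCA with 5 bases of any kind between them, a relaxed form of the direct repeat bound by LXR, written with the well-known Abca1 element in mind and searched on both strands.
Abca1 (chr5:72596474-72596723, minus strand): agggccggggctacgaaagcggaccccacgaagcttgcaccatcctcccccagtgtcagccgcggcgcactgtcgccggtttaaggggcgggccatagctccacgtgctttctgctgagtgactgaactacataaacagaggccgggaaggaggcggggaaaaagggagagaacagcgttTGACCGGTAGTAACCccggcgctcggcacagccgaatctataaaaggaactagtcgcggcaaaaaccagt
Hmgcs1 (chr2:53382054-53382303, plus strand): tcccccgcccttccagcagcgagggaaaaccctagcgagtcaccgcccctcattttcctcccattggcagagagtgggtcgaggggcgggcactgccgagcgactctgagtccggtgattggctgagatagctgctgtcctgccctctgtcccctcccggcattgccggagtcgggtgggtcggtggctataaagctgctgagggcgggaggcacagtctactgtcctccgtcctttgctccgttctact
The Abca1 match begins at -70 from the start and lies on the opposite strand. These letters were found in 1 of the 6 windows of the 4 genes (Apoe has several annotated starts) and in 0.23% of all 33469 windows. The E-box CACGTG was found in the Abca1 window at -149 and in the Lipg window at -177, against 6.42% of all windows, and a relaxed sterol element, TCACNCCAC, was in 0 of the 6 windows and in 1.12% of all. A match is a description of letters and not a bound site.

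The retina libraries held 12283458 to 15644346 counts and the RPE/choroid libraries 28573828 to 48203050. Levels are given as CPM, counts brought to a common library size with TMM factors within a tissue, so that a level can be compared between libraries of a tissue but not between genes or tissues. The labels were checked against markers. In the retina the summed level of 13 rod markers was 54781 to 59810 CPM for young rats, 34371 to 39301 CPM for aged rats and 35282 to 46485 CPM after 8-AG. The summed level of 11 microglia and macrophage markers was 45.0 to 46.5, 134 to 231 and 158 to 168 CPM in the same order. In RPE/choroid, 10 RPE markers summed to 5321 to 19582 CPM, and every library also held rod RNA, at 623 to 55398 CPM. RPE/choroid 8-AG library 1 stood apart, with the highest rod sum, the lowest RPE sum and 44007 CPM of striated muscle markers against 28.5 to 4343 CPM in the other 8 libraries. The labels do not say whether libraries came from separate rats, and in RPE/choroid the young libraries 1 and 2 and the aged libraries 1 and 2 carry the same number with L and R, so that p-values measure only the spread between these libraries. The labels call the 8-AG retina samples total RNA and all others polyA RNA, although the protocol gives polyA capture for all, and a difference of RNA kind cannot be told apart from treatment there.

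Aging was examined first in the retina, by fitting the 3 aged and 3 young libraries with edgeR's quasi-likelihood test over all genes and calling a gene at a Benjamini-Hochberg adjusted p under 0.05. In 7 of the 8 genes the libraries of both groups reached the level asked by the expression filter. Of these 7, 5 changed at that threshold, against 14.5% of the 14588 genes tested. The genes were chosen with earlier results of these data known, so that this share and those below describe the list and do not test it. Abca1 and Apoe rose, 2 of 7 against 7.29% of all genes, and Abcg1, Scarb1 and Sqle fell, 3 of 7 against 7.26%. Hmgcs1 and Lpl did not pass. Lipg was called lower as well, but it reached the filter's level only in the young libraries, so that it entered the test only by being high there, and it is left out of these counts. By the study's own rule for a differentially expressed gene (DEG), over 1.5-fold with an unadjusted P under 0.05, only Abca1 qualified among the 7, 1 of 7 against 8.84% of all genes. In 6 of the 7 genes the aged and young libraries did not overlap, against 35.5% of all genes.

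**Figure D1:**
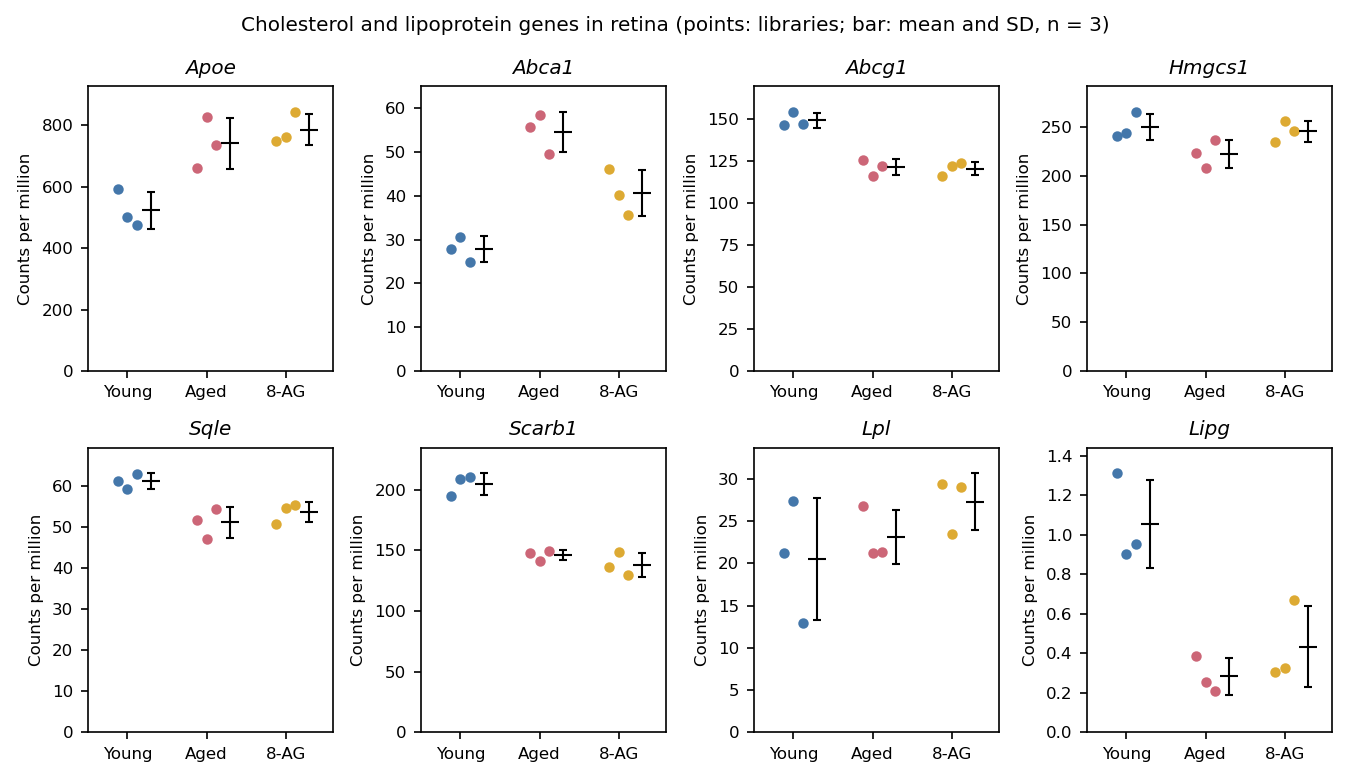
Level of each gene in CPM (linear axes from 0) in the 9 retina libraries; points are libraries, and the bar with whiskers is the mean and SD of 3. Abca1 stood at 24.9 to 30.7 in young, 49.5 to 58.6 in aged and 35.6 to 46.0 in 8-AG treated retinae, whereas Scarb1, Abcg1 and Sqle were lower in all aged and 8-AG libraries than in the young ones.

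Abca1 (ENSRNOG00000018126) encodes the transporter that moves cholesterol and phospholipid out of the cell onto lipid-poor apolipoproteins. Its level was 27.9, 30.7 and 24.9 CPM in the young retinae and 55.7, 58.6 and 49.5 CPM in the aged retinae. The lowest aged library exceeded the highest young one. The difference was 1.97-fold (log2 fold change 0.97 ± 0.10 SE, n = 3 and 3, edgeR adjusted p = 3.2e-04), and it passed the threshold in all 12 alternative analyses, with a log2 fold change of 0.89 to 1.05.

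Apoe (ENSRNOG00000018454) encodes the main apolipoprotein of lipoproteins made inside neural tissue. It was at 592, 503 and 476 CPM in young and at 662, 828 and 735 CPM in aged retinae. The groups did not overlap, and the rise was 1.42-fold (log2 fold change 0.50 ± 0.11, edgeR adjusted p = 0.0147). The call rested on single libraries, since the adjusted p was 0.067 without young library 2 and 0.0512 without aged library 3, with log2 fold changes of 0.48 and 0.51. Of 11 microglia and macrophage markers found, 2 were not tested, and the 9 tested all rose in the aged retina, against 7.29% of all genes. They moved with both Abca1 and Apoe, and their part in these rises was not tested. Of 8 Mueller glia markers, 3 fell and 1 rose, against 7.26% and 7.29% of all genes. Their sum was 5658 to 5875 CPM in young and 4883 to 5127 CPM in aged retinae, lower in all aged libraries. Their part in the Apoe level was not tested.

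Abcg1 (ENSRNOG00000001158), the transporter that hands cholesterol to formed HDL particles, went the other way. It was at 146, 154 and 147 CPM in young and at 126, 116 and 122 CPM in aged retinae. All aged libraries were lower, by -0.29 ± 0.06 on the log2 scale (edgeR adjusted p = 0.0089). Thus the paired transporters of cholesterol efflux differed in direction in the aged retina, Abca1 higher and Abcg1 lower, although the test compared each with the young group and not the genes with each other.

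On the synthesis side, Hmgcs1 (ENSRNOG00000016552) makes the HMG-CoA that feeds the mevalonate pathway, and Sqle (ENSRNOG00000009550) oxidises squalene. Sqle was at 61.3, 59.3 and 63.1 CPM in young and at 51.9, 47.2 and 54.6 CPM in aged retinae. The groups did not overlap, and Sqle fell by 0.26 on the log2 scale (SE 0.07, edgeR adjusted p = 0.0386). This call was weak: the adjusted p was 0.0661 with DESeq2, and it ranged from 0.052 without aged library 1 to 0.112 without aged library 2, with only the fit without aged library 3 staying under the threshold among those that left out a library. Hmgcs1 was at 241, 243.6 and 266 CPM in young and at 224, 208 and 236 CPM in aged retinae. Its libraries did not overlap either, but the difference of -0.17 ± 0.07 did not pass (edgeR adjusted p = 0.125).

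Scarb1 (ENSRNOG00000000981) encodes the scavenger receptor SR-BI, which takes up cholesterol ester from HDL and also carotenoids. It was at 194, 209 and 210 CPM in young and at 148, 142 and 149 CPM in aged retinae. The young libraries were all higher, and the fall of 0.48 on the log2 scale (SE 0.06, edgeR adjusted p = 6.6e-04) passed in all 12 alternatives. The rod markers, of which 10 of 13 fell against 7.26% of all genes, and the Mueller glia sum moved with Scarb1, Abcg1 and Sqle. Their part in these falls was not tested.

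The lipases had the highest coefficient of variation of the 8 in the retina, Lpl in young (35.3%) and Lipg in aged (33.0%) and 8-AG treated rats (46.9%). Lpl (ENSRNOG00000012181) encodes lipoprotein lipase, which frees fatty acids from triglyceride-rich lipoproteins, and Lipg (ENSRNOG00000018694) encodes endothelial lipase, a phospholipase that acts on HDL. Lipg gave only 17, 12 and 14 counts in the young and 5, 4 and 3 counts in the aged retinae. These correspond to 1.31, 0.90 and 0.95 CPM against 0.39, 0.26 and 0.21 CPM. The groups did not overlap, and the log2 fold change was -1.87 ± 0.42 (edgeR adjusted p = 0.016), in a test that Lipg entered only through its young libraries. At so few counts the call was easily lost: the adjusted p was 0.0799 with DESeq2, 0.069 without young library 1, 0.0544 without aged library 2 and 0.065 without aged library 3. Lpl was at 21.2, 27.3 and 12.9 CPM in young and at 26.8, 21.2 and 21.3 CPM in aged retinae, which overlapped (log2 fold change 0.18 ± 0.29, edgeR adjusted p = 0.746). In the young libraries 1 to 3 the RPE marker sum was 80.7, 141 and 25.0 CPM, highest and lowest where Lpl was, and its part in the Lpl level was not tested.

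A wider list of 56 genes of the pathway, written with earlier results of these data known, gave 53 with a match by name, and 48 of them were tested in the aged against young retina. Of these, 7 passed the threshold (14.6%, against 14.5% of all genes), of which 6 rose and 1 fell. Among the 48, Apod, Apom, Lcat and Ch25h reached the filter's level in all aged but not all young libraries. None of them passed, and no median over the list is given. The median over all genes was 0.0019 on the log2 scale. Among 17 sterol synthesis enzymes, 12 had a negative difference, the median was -0.12, and 1 fell (5.88%, against 7.26% of all genes). This was Cyp51, the lanosterol demethylase, which fell by 0.25 on the log2 scale (SE 0.05, edgeR adjusted p = 0.0126), with no overlap between groups, and which passed in all 12 alternatives.

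The genes that rose lay in the other lists, to be read against 7.29% of all genes that rose and a median of 0.0019 over all genes. Of the 8 sterol regulators 1 rose, Nr1h3, which encodes LXR alpha and went from 3.08, 2.70 and 2.86 CPM to 5.05, 7.40 and 6.58 CPM (log2 fold change 1.14 ± 0.20, edgeR adjusted p = 0.00444). Of 12 genes of efflux, apolipoproteins and sterol conversion, 3 rose. In this list Apod, Apom, Lcat and Ch25h entered the test only through the aged libraries, none of them passed, and no median is given. Clu, an apolipoprotein and chaperone, rose by 1.28 ± 0.19 (adjusted p = 0.00961), from 308 to 427 CPM in young to 790 to 1123 CPM in aged retinae. Cyp27a1, the mitochondrial sterol 27-hydroxylase, rose by 1.24 ± 0.17 (adjusted p = 0.00129), and Pltp, the phospholipid transfer protein, by 0.61 ± 0.15 (adjusted p = 0.0233). Of 8 genes of uptake and intracellular transport, 2 rose, both of the lysosome: Npc2, which binds freed cholesterol, by 0.57 ± 0.14 (adjusted p = 0.0338), and Lipa, the acid lipase, by 0.32 ± 0.09 (adjusted p = 0.0346). The calls of Npc2, Pltp and Lipa depended on single libraries. For Npc2 the adjusted p was 0.118 and 0.0817 without young libraries 1 and 3 and 0.0513 and 0.0503 without aged libraries 1 and 2. For Pltp it was 0.0578 and 0.0695 without young libraries 2 and 3 and 0.0557 and 0.0582 without aged libraries 1 and 3. Lipa kept its call in 4 of 12 alternatives, with 0.0639 to 0.133 without any one of the young libraries and 0.0944 and 0.0697 without aged libraries 2 and 3. None of the 3 tested partners of lipoprotein lipase passed. The microglia markers rose beside these genes too, and their part was not tested.

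The transcription factors of the SREBP family and further genes named by rule did not pass in the aged retina. Srebf1 was at 90.4, 89.9 and 71.2 CPM in young and 62.0, 72.5 and 73.3 CPM in aged retinae (log2 fold change -0.27 ± 0.11, edgeR adjusted p = 0.138), although it passed at 0.0195 without young library 3. Srebf2 differed by -0.12 ± 0.06 (adjusted p = 0.21), with all aged libraries below all young ones. Angptl4, an inhibitor of lipoprotein lipase, was at 1.57 to 2.63 CPM in young and 1.73 to 2.36 CPM in aged retinae.

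**Figure D2:**
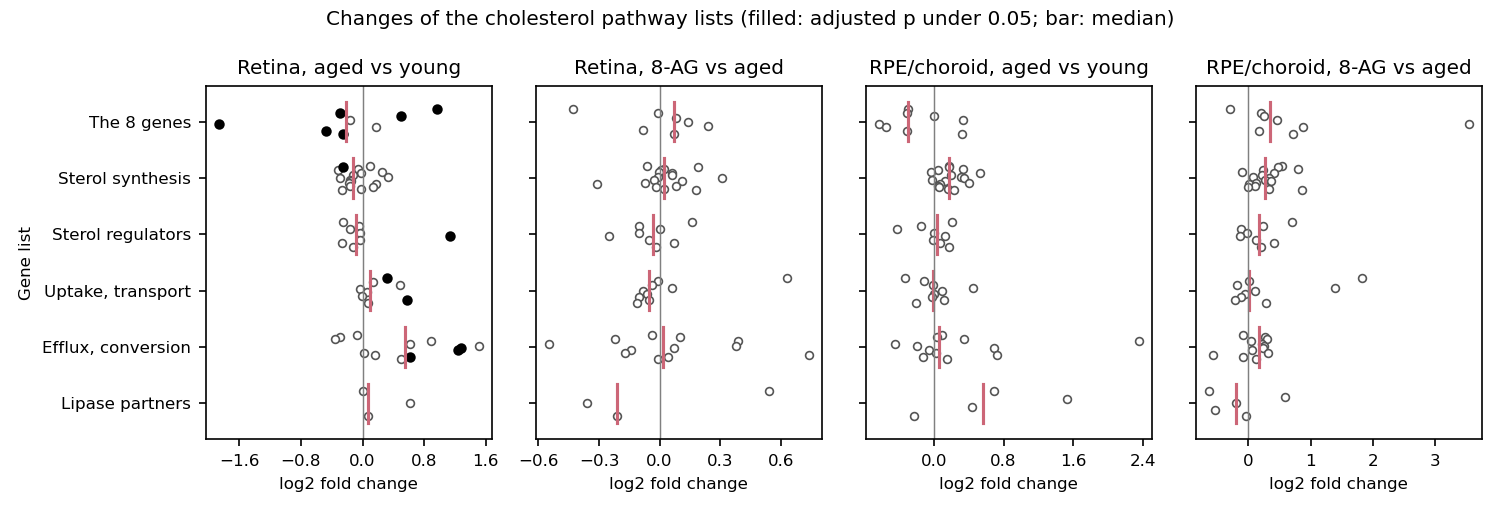
log2 fold change of each tested gene (points) by list in the 4 comparisons, with the list median as a red bar and filled points for an adjusted p under 0.05; the horizontal range differs between panels. In the aged retina the sterol synthesis enzymes centred on -0.12, 4 points of the efflux and conversion list stand for genes tested only through their aged level, and no point is filled in the other 3 panels.

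The question of the treated groups was whether 8-AG shifted these genes in aged tissue, and the 3 aged libraries of each tissue serve in both of its comparisons, so that the aging and 8-AG differences are not independent. In the retina none of the 7 genes tested passed an adjusted p under 0.05, against 0.0205% (3) of 14631 genes, and 537 genes (3.67%) had an unadjusted P under 0.05. DESeq2 called 18 genes and also none of the 7. None met the DEG rule, against 0.957% of all genes.

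Abca1 was the exception in size. It was at 46.0, 40.3 and 35.6 CPM in the 8-AG treated retinae, each below the lowest aged library (49.5 CPM) and above the highest young one (30.7 CPM). The log2 fold change against aged was -0.43 ± 0.11, with a 95% interval of -0.68 to -0.18 and an unadjusted P of 0.00326, but an edgeR adjusted p of 0.996. It was -0.53 to -0.33 over 12 alternatives, and none passed. It was the 1 gene of the 7 whose aged and 8-AG libraries did not overlap, against 8.8% of all genes.

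The other genes overlapped between aged and 8-AG treated retinae. Apoe was at 751, 762 and 844 CPM (log2 fold change 0.08, interval -0.12 to 0.29), Abcg1 at 116, 122 and 124 CPM (-0.01, interval -0.17 to 0.14) and Scarb1 at 136, 149 and 130 CPM (-0.08, interval -0.25 to 0.09). In all 3 the interval of the difference held 0. Hmgcs1 was at 235, 256 and 246 CPM (0.14, interval -0.03 to 0.31), Sqle at 50.9, 54.8 and 55.6 CPM (0.07, interval -0.12 to 0.25) and Lpl at 29.4, 23.4 and 29.1 CPM (0.24, interval -0.06 to 0.54). Lipg gave 4, 4 and 10 counts and did not pass the expression filter. Of 49 pathway genes tested none passed. Cd36 reached the filter's level in all treated but not all aged libraries, and Apoc1 and Apom in all aged but not all treated ones, so that no median over the list is given. Srebf1 differed by 0.07 ± 0.12, Srebf2 by -0.02 ± 0.09 and Angptl4 by 0.54 ± 0.24, each with an edgeR adjusted p of 0.996 or above. Surface epithelium markers summed to between 11.8 and 27.4 CPM in the 8-AG retinae against 3.11 to 5.74 CPM in untreated aged retinae, and their part in these values was not tested.

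In RPE/choroid the spread between libraries was much wider, and none of the 8 genes passed in aged against young, as none (0%) of 16047 genes did, with 341 genes (2.13%) at an unadjusted P under 0.05 and 34 genes called by DESeq2, none of them among the 8. None met the DEG rule, against 1.35% of all genes. In 2 of the 8, Lpl and Scarb1, the aged libraries were all lower, against 7.19% of genes without overlap in either direction.

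**Figure D3:**
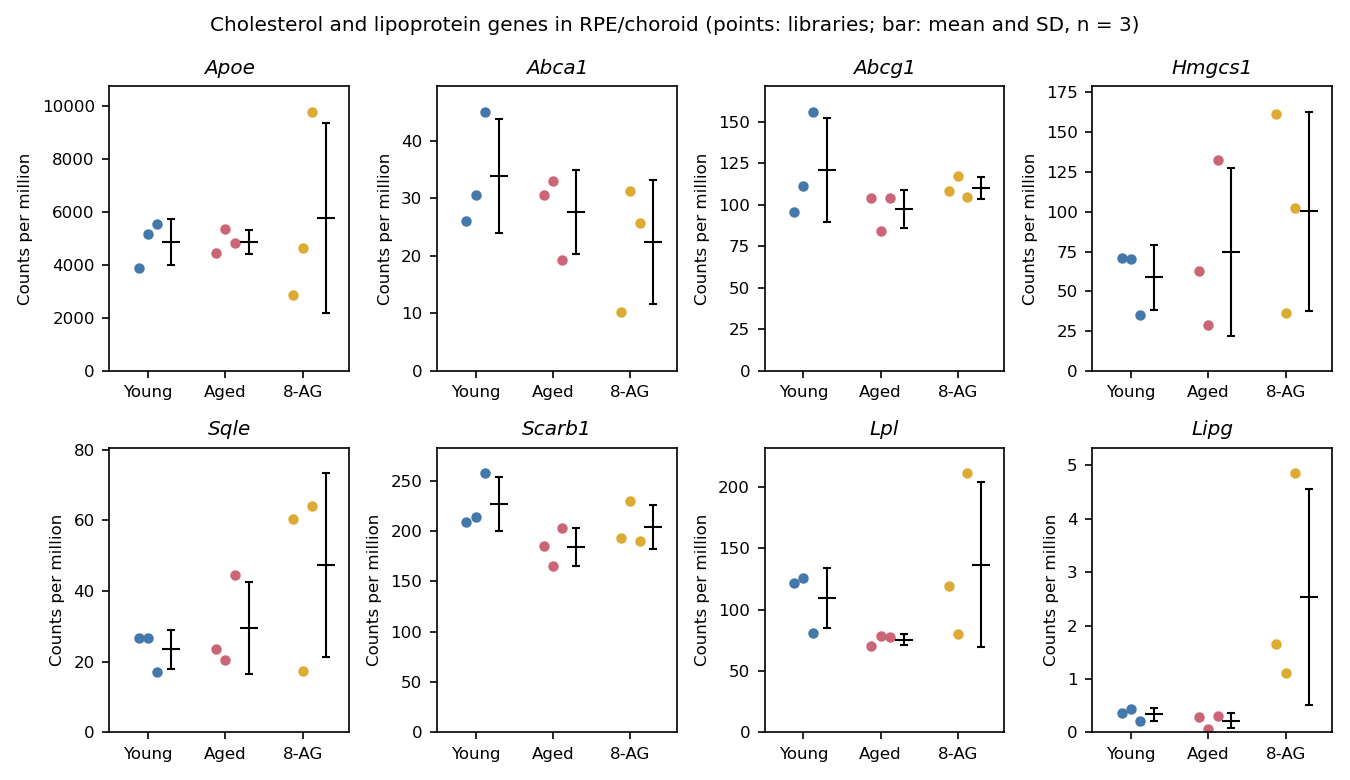
Level of each gene in CPM (linear axes from 0) in the 9 RPE/choroid libraries; points are libraries, and the bar with whiskers is the mean and SD of 3. Lipg lay at 1.11 to 4.85 in the 8-AG libraries against at most 0.43 in the other 6, and Apoe and Lpl were highest in 8-AG library 3.

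Lpl was at 121, 126 and 81.2 CPM in young and at 70.1, 78.8 and 77.8 CPM in aged RPE/choroids. The lowest young library lay close to the highest aged one. The log2 fold change was -0.54 ± 0.19 (unadjusted P = 0.0279, edgeR adjusted p = 1), and without young library 3 it was -0.73 (unadjusted P = 0.00143, edgeR adjusted p = 0.9999), which met the DEG rule. Scarb1 was at 209, 214 and 257 CPM in young and 185, 166 and 203 CPM in aged, a difference of -0.30 ± 0.15 (edgeR adjusted p = 1). The endothelial marker sum, at 5198 to 6779 CPM in young and 3065 to 4522 CPM in aged, was also lower in all aged libraries, and its part was not tested. Of 8 adipocyte markers 7 had a negative difference (median -0.57) and none passed. Their sum was 80.5, 196 and 108 CPM in young and 81.5, 107 and 55.0 CPM in aged RPE/choroids, which overlapped, and their part in the Lpl level was not tested.

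None of the efflux genes passed with aging in the RPE/choroid. Apoe was at 3889, 5154 and 5552 CPM in young and 4434, 5345 and 4836 CPM in aged, a log2 fold change of 0.00 with a 95% interval of -0.54 to 0.54. Abca1 was at 26.1, 30.5 and 45.0 CPM in young and 30.6, 33.0 and 19.2 CPM in aged (-0.29 ± 0.30), and Abcg1 at 95.8, 112 and 156 CPM in young and 104, 84.2 and 104 CPM in aged (-0.31 ± 0.21). All 3 overlapped. A direct test of the aging difference between tissues over 16792 genes gave 1.28 ± 0.34 for Abca1, higher in retina (unadjusted P = 0.00341, edgeR adjusted p = 0.173), and 0.51 ± 0.25 for Apoe (adjusted p = 0.664). None of the 8 passed, against 0.161% of all genes, so that a difference between tissues in the aging change was not shown for any of them.

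Of the 8 genes, Hmgcs1 had the highest coefficient of variation in young (34.5%) and aged (70.6%) RPE/choroids. Hmgcs1 was at 70.7, 70.1 and 35.3 CPM in young, 62.9, 29.0 and 133 CPM in aged and 161, 36.4 and 103 CPM in 8-AG treated RPE/choroids. Sqle was at 26.8, 26.6 and 17.2 CPM, then 23.5, 20.5 and 44.4 CPM, then 60.5, 17.4 and 64.0 CPM in the same order. Both were low in young library 3, aged library 2 and 8-AG library 2 and high in aged library 3 and 8-AG libraries 1 and 3. The rod marker sum was 2029, 623 and 906 CPM in the low libraries and 16833, 55398 and 890 CPM in the high ones. The summed level of 8 Mueller glia markers was 2925, 3221 and 3183 CPM in the low libraries and 6895, 6711 and 5337 CPM in the high ones, so that it was higher in each of the latter, and its part in these levels was not tested. These markers include Rlbp1, which the paper counts among RPE-specific mRNAs, so that in RPE/choroid the sum does not measure Mueller glia alone. With a rod score as a covariate the 8-AG difference was 0.66 ± 0.50 for Hmgcs1, against 0.46 ± 0.74 without it, and 0.78 ± 0.53 for Sqle, against 0.72 ± 0.58. In aged against young, Hmgcs1 differed by 0.34 ± 0.57 and Sqle by 0.32 ± 0.34, and without aged library 3 these were -0.34 and -0.09. Lipg gave 11, 16 and 10 counts in young and 9, 2 and 9 in aged (-0.63 ± 0.68).

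In 8-AG treated against aged RPE/choroid none of the 8 genes passed the adjusted threshold, as none (0%) of 16257 did, with 274 genes (1.69%) at an unadjusted P under 0.05. Lipg reached the expression filter's level in all treated but not all aged libraries, so that it entered the test through the group where it was high, and it is left out of the counts that follow. DESeq2 called 46 genes, none of the other 7 among them. By the DEG rule 0 of the 7 were higher, against 1.24% of genes higher. In 2 of the 7, Lpl and Abcg1, all treated libraries were above all aged ones, against 2.28% of genes, and for Abcg1 the nearest pair was 104.4 and 104.3 CPM.

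Lipg gave 54, 40 and 221 counts in the 8-AG treated RPE/choroids, against 9, 2 and 9 in the aged ones, which is 1.65, 1.11 and 4.85 CPM against 0.29, 0.059 and 0.30 CPM. Every treated library was also above every young one (0.21 to 0.43 CPM). The difference was 11.7-fold (log2 fold change 3.55 ± 0.90, 95% interval 1.32 to 5.78, unadjusted P = 0.00835), with an edgeR adjusted p of 1 and a DESeq2 adjusted p of 0.0273, in tests it entered through the treated group. Treated library 3 held most of the counts, and without it the log2 fold change was 2.66 ± 0.83 (unadjusted P = 0.0243, edgeR adjusted p = 0.9999). Without treated library 1, which stood apart in its muscle and rod markers, it was 3.76 ± 0.95 (unadjusted P = 0.0102, edgeR adjusted p = 0.925). Surface epithelium markers summed to 1301, 29.8 and 238 CPM in treated libraries 1 to 3 against between 13.9 and 23.1 CPM in the untreated aged libraries, and their part in the Lipg level was not tested. The same 8-AG comparison in the retina, where Lipg gave 4, 4 and 10 counts, differed from this one by -2.91 ± 1.05 (unadjusted P = 0.0198, edgeR adjusted p = 1), which did not pass, as none (0%) of 16915 genes did.

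Lpl was at 119, 80.3 and 211 CPM in the treated libraries, each above the highest aged library (78.8 CPM), though only narrowly for library 2. The log2 fold change was 0.88 ± 0.37 (edgeR adjusted p = 1), 0.94 ± 0.41 without treated library 1 and 0.41 ± 0.26 without treated library 3, so that the size rested on library 3. Of the adipocyte markers 7 of 8 had a positive difference (median 0.70) and none passed. Their sum was 192, 77.7 and 66.8 CPM in treated libraries 1 to 3, and their part in the Lpl level was not tested. Without treated library 2 the Lpl difference was 1.14 ± 0.30, and both Lpl and Sqle (1.11 ± 0.40) then met the DEG rule. The Apoe difference rested on treated library 3 as well, with levels of 2872, 4648 and 9778 CPM. Its log2 fold change of 0.25 ± 0.58 became -0.37 ± 0.61 without library 3 and 0.56 ± 0.39 without library 1. The RPE marker sum in treated libraries 1 to 3 was 5321, 16512 and 19582 CPM, in the same order as Apoe, and the microglia and macrophage sum was 596, 4168 and 3949 CPM, also lowest in library 1. Their part in the Apoe level was not tested.

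The remaining genes differed little beside their spread. Abcg1 was at 108, 117 and 104 CPM (0.20 ± 0.17). Scarb1 was at 193, 230 and 190 CPM (0.17 ± 0.20), and Abca1 at 10.3, 31.3 and 25.6 CPM (-0.29 ± 0.45). The low Abca1 value was in treated library 1, where endothelial and microglia markers were lowest as well (586 and 596 CPM against at least 3065 and 2589 CPM in the other 8 libraries), and without it the difference was 0.04. Hmgcs1 differed by 0.46 ± 0.74 and by -0.12 without that library.

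Of the wider pathway, none of 50 genes tested in aged against young RPE/choroid and none of 51 in 8-AG treated against aged passed. The median differences were 0.09 and 0.13, against 0.02 and 0.01 over all genes. The median with aging includes Apoc1, which reached the filter's level in all young but not all aged RPE/choroids. The sterol synthesis enzymes had a positive difference in 15 of 17 genes with aging (median 0.18) and in 16 of 17 with 8-AG (median 0.27). Their summed level was 686, 704 and 508 CPM in young, 640.2, 547 and 997 CPM in aged and 1216, 518 and 956 CPM in treated libraries. Aged library 3 and treated libraries 1 and 3 lay above the young range, the other libraries lay within it, and the aged and treated groups overlapped. The marker sums given above for the Mueller glia list, which holds Rlbp1, were highest in the same 3 libraries, at 6895, 6711 and 5337 CPM. Their part in the levels of the synthesis enzymes was not tested. With aging, Srebf1 differed by 0.07 ± 0.27 and Srebf2 by 0.18 ± 0.12. Angptl4 was at 27.98, 28.2 and 9.95 CPM in young and 31.6, 59.7 and 15.4 CPM in aged RPE/choroids, which overlapped (0.69 ± 0.60), and the difference was 0.09 without aged library 2, 0.32 without young library 3 and 1.06 without aged library 3. With 8-AG, Srebf1 differed by 0.41 ± 0.38, Srebf2 by 0.21 ± 0.25 and Angptl4 by -0.64 ± 0.56, which was -0.04 without aged library 2, -0.38 without treated library 1 and -1.0 without aged library 3.

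**Figure D4:**
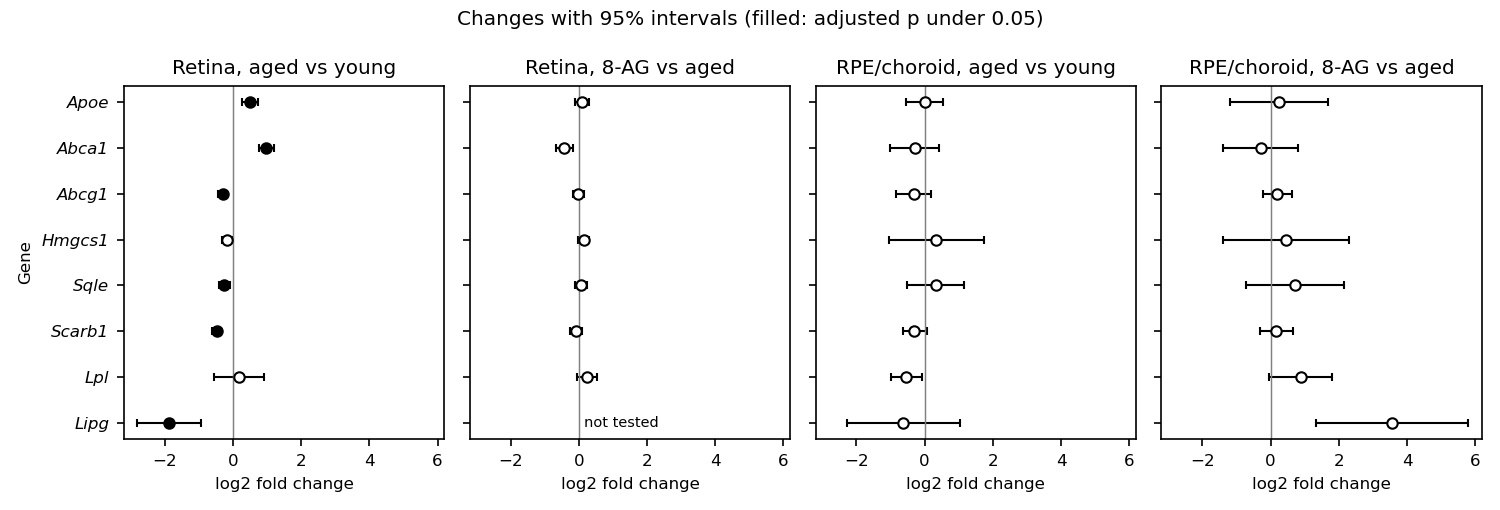
log2 fold change of each gene (points) with its 95% interval (whiskers) in the 4 comparisons on a shared axis; filled points have an edgeR adjusted p under 0.05. Only the aged retina has filled points, 6 of 8 with Lipg included, and the RPE/choroid intervals are wider, with Lipg under 8-AG at 3.55 (1.32 to 5.78).

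The widths of these intervals follow the spread between libraries. In the retina the median coefficient of variation of the 8 genes was 7.89% for young, 7.87% for aged and 6.81% for 8-AG libraries, close to the 7.50%, 8.74% and 9.96% of all genes tested. In RPE/choroid it was 24.5%, 19.3% and 52.0%, against 17.5%, 23.5% and 40.0% of all genes. The RPE/choroid interval of Apoe with aging, -0.54 to 0.54, includes the retina value of 0.50.

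Each gene was last set beside the 1 gene whose log2 CPM followed it most closely over the 9 libraries of a tissue, as a description over points that share groups and depth. In the retina Abca1 was closest to Dnaaf3 (Pearson r = 0.976), Apoe to Ifngr2 (0.976), Abcg1 to Ypel2 (0.993), Scarb1 to Zmynd8 (0.987) and Sqle to Sp4 (0.986). In RPE/choroid Hmgcs1 was closest to Gpr75 (0.992), Sqle to Gaa (0.994), Abca1 to RT1-S3 (0.990) and Lipg to Wnt5a (0.941). No gene had the same closest partner in both tissues.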

How the data were processed

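Gene-level values were used from 18 libraries, 9 of retina and 9 of RPE/choroid. For retina the authors deposited RSEM expected counts, which are not normalized; 11.5% were not whole numbers, and all were rounded here. For RPE/choroid the authors deposited raw counts per gene. A TMM-normalized signal table for retina, deposited by the authors, served only as an alternative, with limma 3.58.1 on log2(value + 1). The submitters' processing notes name Bowtie2 2.1.0, RSEM 1.2.15, edgeR and the build Rnor_6.0 without saying for which tissue, so that the RPE/choroid aligner and counting program are not given in the sources used here. The deposited comparison tables, with fold changes, p-values and normalized counts, were used only to pair identifiers with symbols; matching values gave the same symbol for 10181 (93.4%) of 10900 identifiers named both ways.

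For each pair of groups, a model over 6 libraries was fitted in R 4.3.3 (edgeR 4.0.16) after filterByExpr and TMM scaling, using glmQLFit with robust=TRUE and glmQLFTest, adjusted by Benjamini-Hochberg over all genes tested. The standard error is the log2 fold change divided by the square root of F. Aging and 8-AG changes were compared between tissues with an interaction term. DESeq2 1.42.0, RLE size factors, no filter, a joint fit of all 3 groups, the replicate number as a block, a rod score as a covariate and each library left out were the alternatives.

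The 8 genes, the pathway lists and the markers were chosen with earlier results of these data known. All 8 genes are described; a pathway gene is named if its adjusted p was under 0.05 (at most 4 per list), and Srebf1, Srebf2 and Angptl4 are named whatever their values. Apob, Lipc and Apoc2 were not analysed here, and some other genes of the pathway are not reported here. For likeness, the genes compared with the 8 needed a mean log2 CPM of at least 1, with a prior count of 2; the 8 themselves, with Lipg below that level, did not. Figures were made with matplotlib 3.10.9.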

Additional observations from a re-analysis of the deposited data

How the results depend on the processing

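With 3 libraries a group, an exact permutation test cannot go below 0.1, so all calls rest on spread shared across genes, and low counts limit Lipg. Correlations of the deviations of same-numbered libraries ran from -0.62 to 0.66, which does not settle whether these libraries shared more than a number. With the replicate block, 5 of the 8 genes passed in the aged retina in place of 6 (Lipg included), Sqle being lost (adjusted p = 0.0561), Lipa was lost among the pathway genes (adjusted p = 0.0709; 0.0715 in the joint fit, 0.0515 with limma), and all genes called went from 2122 to 1698. The block gave 0 genes called for 8-AG in retina in place of 3, 138 DEGs in aged RPE/choroid in place of 217, and log2 fold changes of 0.01 for Apoe (aged RPE/choroid) and 0.02 for the tissue difference of Apoe under 8-AG. DESeq2 called 18 genes for 8-AG in retina, 34 in aged RPE/choroid and, for 8-AG in RPE/choroid, 46 genes with 560 DEGs, 1 and 2 of them among the 8. Without a filter there were 10 calls and 318 DEGs for 8-AG in retina, and 364 (aged) and 503 (8-AG) DEGs in RPE/choroid. All 3 groups in one fit gave 131 (aged) and 465 (8-AG) DEGs in RPE/choroid, 2 of the latter among the 8. The rod covariate gave 1 call and 1093 DEGs (aged) and 1004 DEGs (8-AG), and summing libraries that share a label number gave 85 DEGs (8-AG). Apoe in aged RPE/choroid, at 0.00, was 0.01 with RLE, DESeq2 and one fit. The cause of these shifts was not tested.

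Leaving out one library gave, in the aged retina, 1245 to 2312 genes called, 4 to 5 of the 8 and 5 to 6 pathway genes, with Angptl4 at -0.16 to 0.23 and Lpl at -0.08 to 0.44. For 8-AG in retina it gave 0 to 3 calls and 142 to 255 DEGs, Abcg1 -0.04 to 0.02, Srebf1 -0.08 to 0.16 and Srebf2 -0.12 to 0.04. In aged RPE/choroid it gave 213 to 414 DEGs, 0 to 1 among the 8, Apoe -0.14 to 0.09, Hmgcs1 -0.34 to 0.72, Sqle -0.09 to 0.52 and Srebf1 -0.22 to 0.30. For 8-AG in RPE/choroid it gave 86 to 733 DEGs, 1 to 3 among the 8, Apoe -0.37 to 0.56, Abca1 -0.60 to 0.04, Hmgcs1 -0.12 to 1.16 and Srebf2 -0.05 to 0.39. Tissue differences that turned were Abcg1 (-0.20 to 0.18) and Hmgcs1 (-0.88 to 0.18) with aging, and Apoe (-0.49 to 0.44), Abca1 (-0.47 to 0.21) and Hmgcs1 (-0.94 to 0.25) with 8-AG. Of 282 alternatives for counts of genes, 246 stayed within 1.5 times. These include counts of 0 that stayed 0, such as that of the 8 genes called in aged RPE/choroid.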
